A study of Mus musculus with 16 samples.

Results

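The genes described here encode the cytochromes P450 (CYP) of families 1 to 3, which carry out much of the oxidation of drugs, plant chemicals and other foreign compounds. They were chosen by name: every gene of the deposited count table whose Ensembl identifier belongs to a protein-coding gene with a symbol of the form Cyp1, Cyp2 or Cyp3, a letter and a number, pseudogenes left out. This gave 60 of the 55359 genes in the table, in 16 subfamilies, and the rule uses no measured value. Total RNA came from duodenum and ileum of C57BL/6N mice, all adult males on a high fat diet, 5 weeks after tamoxifen. The 4 control mice carried the floxed Neurog3 alleles (Neurog3f/f) and no recombinase. The 4 mutant mice carried the same alleles and in addition Villin-CreERT2, whose promoter drives the recombinase in gut epithelial cells and whose activity needs tamoxifen. Neurog3 encodes the transcription factor that starts the formation of hormone-secreting enteroendocrine cells. The same 8 mice gave both tissues, so there were 4 groups of 4 libraries. Mice are named C (control) or M (mutant) with the number in their title: C133, C134, C151, C154, M136, M167, M168 and M177. Values over the libraries of a group are given in that order.

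P450 enzymes of these families sit in the endoplasmic reticulum, hold a haem group that binds oxygen, and take their electrons from P450 oxidoreductase (Por). In the gut they are made mainly by the absorptive enterocytes of the villus, which meet swallowed compounds before the liver does. Several are switched on by receptors that sense foreign compounds: the pregnane X receptor (Nr1i2) for Cyp3a genes, the constitutive androstane receptor (Nr1i3) for Cyp2b and Cyp2c genes, and the aryl hydrocarbon receptor (Ahr) for Cyp1 genes. The Cyp2c, Cyp2d, Cyp2j and Cyp3a genes lie in clusters of close copies, on chromosomes 19, 15, 4 and 5.

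The promoters of 3 members are shown first because the start regions of Cyp3a11 and of a pair of Cyp2c genes share a 9-letter word. Each sequence is the 250 bases before the RefSeq start of the gene, read 5′ to 3′ on the gene's strand, in build GRCm38.p6. The capitals mark CAAAGTCCA, the classical binding word of HNF4A, a factor of enterocytes and hepatocytes. The Cyp3a11 stretch is chr5:145879855-145880104 on the minus strand, that of Cyp2c65 is chr19:39060756-39061005 on the plus strand, and that of Cyp2c68 is chr19:39741102-39741351 on the minus strand.
Cyp3a11: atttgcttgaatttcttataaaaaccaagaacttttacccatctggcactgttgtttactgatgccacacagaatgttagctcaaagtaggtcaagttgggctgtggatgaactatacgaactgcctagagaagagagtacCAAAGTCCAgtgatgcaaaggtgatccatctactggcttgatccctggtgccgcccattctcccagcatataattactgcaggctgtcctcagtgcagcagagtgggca
Cyp2c65: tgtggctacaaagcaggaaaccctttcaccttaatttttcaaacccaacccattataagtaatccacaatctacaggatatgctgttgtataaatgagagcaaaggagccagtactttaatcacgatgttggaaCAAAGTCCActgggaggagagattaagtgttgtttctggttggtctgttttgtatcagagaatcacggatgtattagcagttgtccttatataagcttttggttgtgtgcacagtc
Cyp2c68: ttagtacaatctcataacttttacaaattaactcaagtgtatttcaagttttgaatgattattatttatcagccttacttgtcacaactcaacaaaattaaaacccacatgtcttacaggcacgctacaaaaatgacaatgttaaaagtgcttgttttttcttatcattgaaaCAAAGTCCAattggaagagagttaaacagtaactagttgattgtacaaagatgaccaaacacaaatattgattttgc
The word lies 101 to 109 bases before the start in Cyp3a11, 108 to 116 in Cyp2c65 and 69 to 77 in Cyp2c68. A promoter entry was found for 52 of the 60 genes. Searched on both strands, CAAAGTCCA was present in 10 of these 52 genes (19.2%), all of the Cyp2c and Cyp3a subfamilies, and in 126 of the 32851 promoters in the table (0.384%). Close copies share their promoters in part, so the 10 genes are not independent. Among the 10, Cyp2c40 and Cyp2c69 had 0 counts in all 16 libraries, while the abundant Cyp3a13, Cyp2d26 and Cyp2b10 lacked the word. Other words searched were also more frequent in the 52 genes than in all promoters: AGGTCA (28.8% against 14.0%), GATAA (42.3% against 22.6%) and TATAAA (48.1% against 12.4%). GCGTG was less frequent (15.4% against 28.2%). Levels are in CPM, the counts of a gene scaled to the total of its library. Hnf4a itself was measured at 896 ± 15.99 CPM in control duodenum and 1067 ± 95.7 CPM in control ileum (SD, n = 4).

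A second pair is shown because near-identical start regions went with very different levels. The stretch of Cyp3a25 is chr5:146009619-146009868 on the minus strand and that of Cyp3a59 is chr5:146079008-146079257 on the plus strand, with capitals where the aligned pair differs.
Cyp3a25: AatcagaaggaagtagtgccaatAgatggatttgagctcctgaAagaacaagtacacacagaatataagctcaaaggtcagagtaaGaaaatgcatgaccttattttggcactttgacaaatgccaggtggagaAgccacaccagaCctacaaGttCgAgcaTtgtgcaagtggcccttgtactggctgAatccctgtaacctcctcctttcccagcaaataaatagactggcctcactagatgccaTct
Cyp3a59: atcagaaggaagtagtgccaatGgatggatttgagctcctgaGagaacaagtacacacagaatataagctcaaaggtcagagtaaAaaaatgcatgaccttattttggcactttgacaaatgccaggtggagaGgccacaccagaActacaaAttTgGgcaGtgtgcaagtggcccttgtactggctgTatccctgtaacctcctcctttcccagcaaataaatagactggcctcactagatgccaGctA
The pair was identical at 238 of 251 aligned columns (94.8%). In duodenum the mean level over 8 libraries was 91.0 CPM per kilobase of exon for Cyp3a25 and 0.391 CPM per kilobase for Cyp3a59. In their transcripts, 26.8% of the 50-letter words of Cyp3a25 and 28.0% of those of Cyp3a59 also occur in another family gene, so some reads of the pair cannot be assigned to one gene.

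Libraries held 40.9 to 67.2 M counts, and 3 counts over a group of 4, the limit that a count of 0 allows, came to 0.0122 to 0.0170 CPM. Neurog3 had 549 counts in control and 1 in mutant duodenum, and 201 in control and 1 in mutant ileum. The region labels held: 4 of 5 duodenum markers were lower and 5 of 5 ileum markers higher in control ileum. Summed markers of villus enterocytes (10 genes) were 44875 to 58506 CPM in control duodenum, 23494 to 51061 in mutant duodenum, 17447 to 28793 in control ileum and 7618 to 17546 in mutant ileum. Smooth muscle markers (8 genes) were 725 to 1045 CPM in control duodenum and 2050 to 2995 CPM in control ileum. Exocrine pancreas markers (12 genes) ran from 74.4 to 32708 CPM in control duodenum and from 9287 to 206727 CPM in mutant duodenum. Lymphoid follicle markers (8 genes) ran from 8.82 to 175 CPM in control ileum and from 3.99 to 7.20 CPM in mutant ileum. Hepatocyte markers (8 genes) stayed at or under 21.8 CPM in sum in every library, although many P450 genes of these families are best known from liver. In bulk tissue, fewer cells of a type and less RNA per cell cannot be told apart.

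Few of the 60 genes made up most of the signal. All 16 libraries had 0 counts for 7 genes (Cyp2a22, Cyp2b13, Cyp2c37, Cyp2c40, Cyp2c50, Cyp2c69 and Cyp2g1), and 18 more were under 0.1 CPM on average over the 16 libraries. A mean of at least 1 CPM was reached by 22 genes and a mean of at least 10 CPM by 14. The 6 highest genes held 88.0% of the summed CPM in duodenum. Per kilobase of exon, the order in duodenum was Cyp3a13 (650 CPM per kilobase), Cyp2d26 (321), Cyp2c65 (191), Cyp2b10 (160), Cyp2j6 (127), Cyp3a11 (122) and Cyp3a25 (91.0). In ileum it was Cyp3a13 (105 CPM per kilobase), Cyp2d26 (58.0), Cyp2j6 (57.5), Cyp2c65 (34.0), Cyp2s1 (16.3), Cyp3a25 (15.4) and Cyp2u1 (13.0). The length used is that of all exons merged. With the longest transcript in its place, a choice made after the data were seen, Cyp3a11 stood at 221 CPM per kilobase in duodenum and moved from place 6 to place 3. Cyp3a13 led in both tissues on either length, and Cyp3a11 and Cyp2b10 dropped out of the first 7 places in ileum. Neighbours such as Cyp2d26 and Cyp2j6 in ileum had ranges over libraries that overlapped (45.4 to 241 and 114 to 330 CPM).

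**Figure D1:**
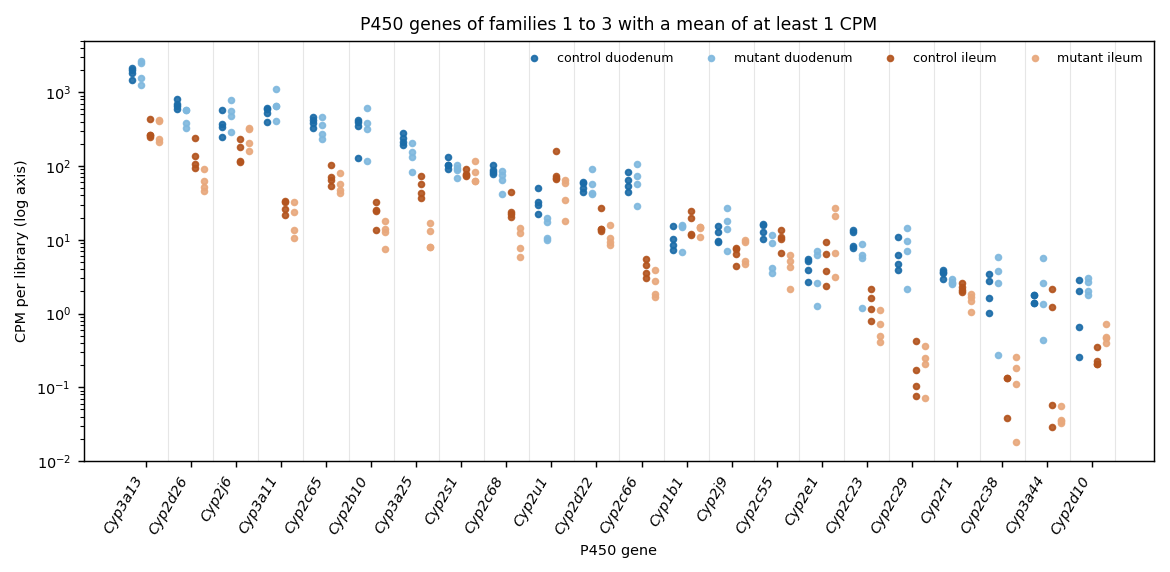
Level of each P450 gene with a mean of at least 1 CPM, in CPM on a log axis, 1 point per library, coloured by genotype and tissue (4 libraries a group). By group mean, most genes sit lower in both ileum groups than in both duodenum groups, while Cyp2u1, Cyp1b1 and Cyp2e1 sit higher. The points of these higher genes overlap in part between the tissues. The 1 library in which Cyp2c38 had no count (control ileum) has no point.

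The first comparison asked how the ileum of control mice differed from their duodenum. Summed over the 60 genes, the level was 4839 ± 731 CPM in control duodenum and 1056 ± 311 CPM in control ileum (SD, n = 4). Of 31 genes with enough counts to be tested, 22 were lower and 2 were higher in ileum at an edgeR adjusted p under 0.05. Among all 18217 genes tested, 30.3% were lower and 28.0% were higher (58.3% in either direction). The median log2 fold change was -1.65 over the 31 genes and -0.00 over all genes tested. In mutant mice 29 genes were tested, of which 21 were lower and 2 were higher in ileum, against 18.2% lower and 12.9% higher among all 17852 genes (31.1% in either direction). Their median was -2.63, against -0.01 over all genes. A gene that reached the count minimum only through the tissue where it is high had to differ, so these counts do not speak for the genes that were not tested. For the same reason the p-value of such a gene is no separate support for its difference. Among them are Cyp3a16, Cyp2c70 and Cyp2j5 in control mice and Cyp1a1 and Cyp2d9 in mutant mice. Of 27 genes tested in both genotypes, 27 had the same sign in both, and 19 passed in both. Villus enterocyte markers moved the same way, with 7 of 10 lower and 2 higher in control ileum, and 8 of 8 smooth muscle and 6 of 6 fibroblast markers were higher there. General epithelium markers went the other way, with 5 of 8 genes higher and 1 lower. The part of these markers in the P450 differences was not tested.

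The Cyp3a subfamily, the main drug-oxidising one, was the most abundant, with 2633 ± 397 CPM in control duodenum and 386 ± 99.8 CPM in control ileum. Cyp3a13, the leading intestinal Cyp3a enzyme of mice, had 1840, 2128, 2014 and 1467 CPM in the 4 control duodenum libraries and 251, 434, 261 and 266 CPM in control ileum. The groups lay far apart, a log2 fold change of -2.61 (SE 0.20, edgeR adjusted p = 2.83e-06). In mutant mice it had 1247 to 2634 CPM in duodenum and 209 to 419 CPM in ileum, a change of -2.63 (SE 0.32, adjusted p = 0.000167). Cyp3a11, the mouse counterpart of human CYP3A4 and a target of the pregnane X receptor, had 603, 526, 611 and 393 CPM in control duodenum and 32.9, 26.3, 33.7 and 21.6 CPM in control ileum. This was the steeper fall, with a log2 fold change of -4.21 (SE 0.20, adjusted p = 2.39e-07), and in mutant mice it was -5.11 (SE 0.48, adjusted p = 0.000112).

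Cyp3a25, another Cyp3a enzyme, had 243, 284, 214 and 195 CPM in control duodenum and 37.3, 73.2, 43.0 and 57.1 CPM in control ileum. Its log2 fold change was -2.14 (SE 0.22, adjusted p = 5.07e-05) in control and -3.66 (SE 0.36, adjusted p = 0.000135) in mutant mice. Cyp3a16, known from fetal liver, had 100 counts in control duodenum and 0 in control ileum, so it was at least 35.0-fold lower there, taking 3 counts over the group as the floor (adjusted p = 0.000185). Cyp3a16 reached the count minimum through duodenum alone, so it had to differ. Cyp3a59 (0.612 to 1.14 CPM in control duodenum, 0.132 to 0.435 in control ileum) and Cyp3a57 (0.231 to 0.349 and 0.0190 to 0.114 CPM) were lower too, by log2 -1.41 (adjusted p = 0.00767) and -2.21 (adjusted p = 0.0034). Cyp3a44, a gene best known from female liver, behaved unevenly: control ileum had 0.0293, 0.0572, 1.23 and 2.16 CPM, overlapping the 1.38 to 1.78 CPM of control duodenum. It did not pass in control mice (-0.87, SE 1.04, adjusted p = 0.504). In mutant mice it fell, from 0.443 to 5.67 CPM in duodenum to 0.0329 to 0.0560 CPM in ileum (-5.87, SE 0.84, adjusted p = 0.000778).

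Cyp2b10, the classical target of the constitutive androstane receptor, had 393, 417, 354 and 127 CPM in control duodenum and 32.7, 25.4, 24.6 and 13.4 CPM in control ileum. The groups did not overlap, and mouse C154 was lowest in both tissues. The log2 fold change was -3.74 (SE 0.47, adjusted p = 0.000484) in control and -4.75 (SE 0.56, adjusted p = 0.000568) in mutant mice. Cyp2b10 made up 99.996% of the summed Cyp2b level, since its 4 relatives were at or near 0.

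The Cyp2c genes, enzymes of drugs and of arachidonic and other fatty acids, summed to 584 ± 85.7 CPM in control duodenum and 118 ± 36.0 CPM in control ileum. Cyp2c65, the leading member in gut, had 469, 332, 424 and 379 CPM in control duodenum and 65.6, 103, 54.4 and 71.8 CPM in control ileum (log2 -2.43, SE 0.20, adjusted p = 6.72e-06). Its neighbour Cyp2c66, which shares 20.4% of its 50-letter words with Cyp2c65, fell further, from 44.2 to 81.8 CPM to 3.05 to 5.57 CPM (-3.85, SE 0.26, adjusted p = 7.46e-06). Cyp2c29, an inducible enzyme of liver, was 3.91 to 10.8 CPM in control duodenum and 0.0762 to 0.424 CPM in control ileum (-4.95, SE 0.56, adjusted p = 0.000118). This was the largest fitted fall among the tested Cyp2c genes in control mice. Cyp2c38 (1.01 to 3.45 and 0 to 0.133 CPM), Cyp2c70, which makes the muricholic acids of mouse bile (0.434 to 0.901 and 0 to 0.0762 CPM), and Cyp2c23, an arachidonic acid epoxygenase (7.86 to 13.5 and 0.788 to 2.15 CPM), had log2 fold changes of -4.75, -3.88 and -2.87. Cyp2c68 fell from 77.4 to 102 CPM to 20.1 to 44.4 CPM, by less (-1.65, SE 0.26, adjusted p = 0.000941). These 7 genes were also lower in mutant ileum, by log2 -2.53 (Cyp2c65) to -5.19 (Cyp2c29). Without mouse M167, Cyp2c38 did not pass there (adjusted p = 0.0648), nor did it with limma-voom, another test. With the mouse as a block it passed (adjusted p = 3.06e-05).

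Cyp2c55, which hydroxylates fatty acids, did not pass between regions. It had 16.5, 12.8, 10.2 and 15.7 CPM in control duodenum and 10.8, 13.6, 6.64 and 10.1 CPM in control ileum, with overlapping groups. The log2 fold change was -0.41 (SE 0.22, adjusted p = 0.135) in control and -0.66 (SE 0.43, adjusted p = 0.283) in mutant mice. With the mouse as a block it passed in both, with adjusted p = 0.0171 and 0.0479. Cyp2c67 was scarce, at 0.300 to 0.441 CPM in control duodenum and 0.0439 to 0.286 CPM in control ileum (-0.93, SE 0.48, adjusted p = 0.114). In mutant mice it was lower in ileum by -2.50 (SE 0.55, adjusted p = 0.00538), and 52.8% of its 50-letter words occur in other family genes.

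Among the Cyp2d genes, relatives of human CYP2D6, Cyp2d26 had 809, 686, 661 and 586 CPM in control duodenum and 137, 241, 94.7 and 108 CPM in control ileum. The log2 fold change was -2.23 (SE 0.29, adjusted p = 0.000249) in control and -2.87 (SE 0.26, adjusted p = 3.38e-05) in mutant mice. Cyp2d22 fell from 44.6 to 61.4 CPM to 13.1 to 27.0 CPM (-1.65, SE 0.25, adjusted p = 0.000745) in control and by -2.38 in mutant mice. Cyp2d10 was at 0.254 to 2.82 CPM in control duodenum and 0.207 to 0.351 CPM in control ileum, and the groups overlapped. It passed at -2.49 (SE 0.70, adjusted p = 0.0136), but not without mouse C151 (adjusted p = 0.0907). With limma-voom, another test, its adjusted p was 0.122. With the mouse as a block it passed (adjusted p = 0.00402). Cyp2d9, a male-predominant steroid hydroxylase of liver, was tested in mutant mice alone, where it was lower in ileum (0.875 to 2.42 against 0.0523 to 0.250 CPM, log2 -3.26, SE 0.48, adjusted p = 0.000521).

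Cyp2j enzymes turn arachidonic acid into epoxides. Cyp2j6, the abundant one in gut, had 372, 575, 339 and 250 CPM in control duodenum and 181, 232, 114 and 117 CPM in control ileum. The fall was modest (-1.24, SE 0.32, adjusted p = 0.0113), and without mouse C133 its adjusted p was 0.0510. In mutant mice it was -1.05 (SE 0.32, adjusted p = 0.0338) with overlapping groups, and without mouse M136, M167 or M168 the adjusted p was 0.0642, 0.127 or 0.0810. With the mouse as a block, Cyp2j6 passed in control and in mutant mice (adjusted p = 5.67e-06 and 0.00184). Cyp2j9 fell from 9.34 to 15.2 CPM to 4.48 to 7.62 CPM in control mice (-0.85, SE 0.20, adjusted p = 0.0045). In mutant mice it was -1.18 (SE 0.41, adjusted p = 0.0595), and 0.00752 with the mouse as a block. Cyp2j5, best known from kidney and liver, was scarce and clearly split: 0.941, 0.858, 1.20 and 0.888 CPM in control duodenum against 0.102, 0.172, 0.0380 and 0.0622 CPM in control ileum (-3.32, SE 0.39, adjusted p = 4.04e-05).

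Both genes that were higher in ileum are the only members of their subfamilies. Cyp2u1, a fatty acid hydroxylase, had 32.7, 51.1, 22.6 and 29.7 CPM in control duodenum and 68.2, 161, 72.2 and 66.2 CPM in control ileum. The groups did not overlap, and the library of mouse C134 was the high one in both. The log2 fold change was 1.44 (SE 0.39, adjusted p = 0.0176) in control and 1.61 (SE 0.42, adjusted p = 0.0222) in mutant mice, where the groups overlapped (9.86 to 20.0 and 17.8 to 64.2 CPM). Without mouse C133, C151 or C154 the control value had an adjusted p of 0.0566, 0.0604 or 0.0619. Without mouse M168 or M177 the mutant value had one of 0.0930 or 0.0758. With the mouse as a block, Cyp2u1 passed in control and in mutant mice (adjusted p = 1.22e-05 and 0.000371). Cyp2w1, known from fetal gut and colon tumours, had 0.0601, 0.175, 0.231 and 0.0790 CPM in control duodenum and 2.11, 1.07, 1.78 and 0.477 CPM in control ileum. It rose by 3.31 (SE 0.54, adjusted p = 0.000447) in control and by 2.49 (SE 0.46, adjusted p = 0.00212) in mutant mice. The level stayed under 2.5 CPM in each library.

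The other genes changed little or unevenly. Cyp2s1, an enzyme of epithelia outside the liver that can be induced through Ahr, had 92.4 to 133.6 CPM in control duodenum and 72.1 to 90.3 CPM in control ileum (-0.44, SE 0.12, adjusted p = 0.00702), and -0.10 (SE 0.20, adjusted p = 0.738) in mutant mice. Cyp2r1, which hydroxylates vitamin D, fell from 2.98 to 3.95 CPM to 1.95 to 2.58 CPM (-0.65, SE 0.16, adjusted p = 0.00463). Its change in mutant mice was -0.82 (adjusted p = 0.0137), and 0.0731 was the adjusted p without mouse M168. With the mouse as a block the adjusted p there was 0.0115. Cyp1b1, an Ahr target that metabolises oestrogens, had 7.30 to 15.2 CPM in control duodenum and 11.6 to 24.6 CPM in control ileum (0.73, SE 0.32, adjusted p = 0.0837). With the mouse as a block it passed (adjusted p = 0.000153). Cyp1a1, the classical Ahr target, had 0.501, 3.40, 0.315 and 0.415 CPM in control duodenum and 0.161, 0.896, 0.228 and 0.601 CPM in control ileum (-1.32, SE 0.93, adjusted p = 0.256). In mutant mice it had 4.02, 0.613, 0.960 and 2.33 CPM in duodenum against 0.0493, 0.0700, 0.0697 and 0.107 CPM in ileum, with no overlap (-4.69, SE 0.65, adjusted p = 0.000405). Cyp2e1, the ethanol-oxidising enzyme, and Cyp2f2, known from lung, did not pass in control mice (0.34 and 0.68, adjusted p = 0.519 and 0.317).

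**Figure D2:**
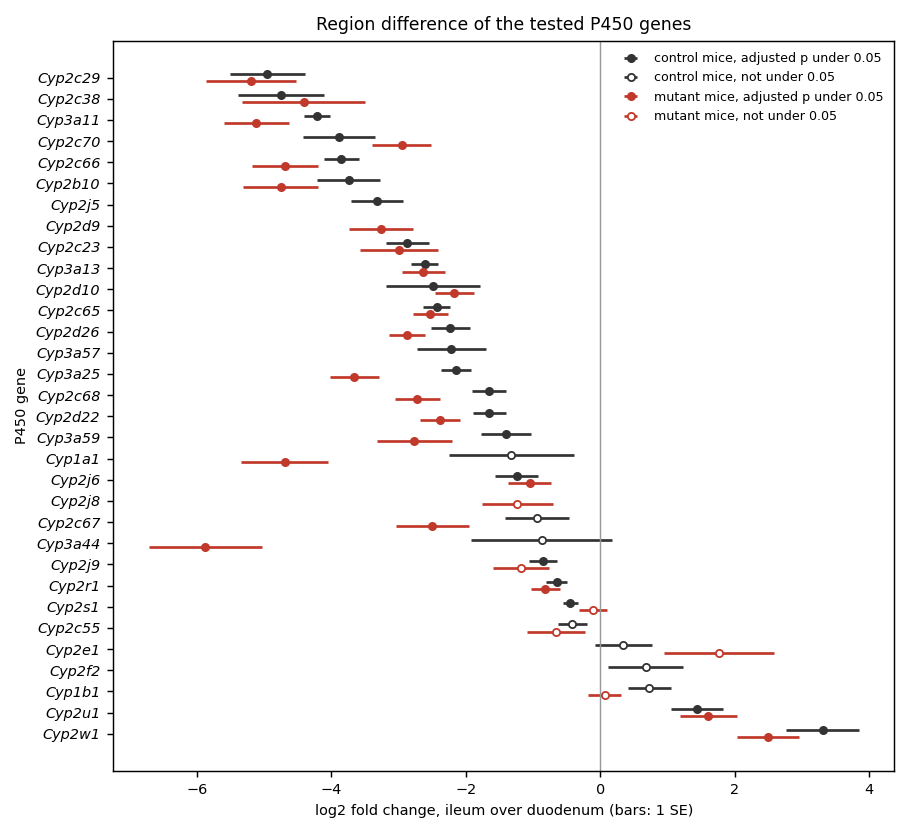
Log2 fold change of ileum over duodenum for the P450 genes tested, in control mice (black) and mutant mice (red), with bars of 1 SE and filled points for an edgeR adjusted p under 0.05. In control mice Cyp2u1 and Cyp2w1 lie to the right and pass, and the other filled points lie to the left. Cyp3a16, which passed as lower, is not drawn because it had no count in control ileum.

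P450s of families 4 and up, which act mostly on fatty acids, sterols and vitamins, were taken as a comparison by name alone (39 genes). In control mice 20 were tested, of which 5 were higher and 8 lower in ileum, with a median log2 fold change of 0.01. In mutant mice 18 were tested, of which 3 were higher and 10 lower in ileum, with a median of -1.10. Among all genes tested, 28.0% were higher and 30.3% lower in control mice, and 12.9% higher and 18.2% lower in mutant mice. The medians of families 1 to 3 were -1.65 and -2.63, and whether the families differ was not tested.

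The next comparison asked how the duodenum of mutant mice differed from that of control mice. Mutant mice differed from controls in the recombinase as well as in the loss of Neurog3, and these cannot be told apart. The summed level was 4839 ± 731 CPM in control and 4878 ± 1583 CPM in mutant duodenum (SD, n = 4), and the mutant libraries spread from 3226 to 6315 CPM. Of 32 genes tested, 2 were higher and 2 lower in mutant duodenum, against 3.44% higher and 5.11% lower (8.55% in either direction) among all 17611 genes tested. The median over the 32 genes was 0.14, against 0.02 over all genes. At an unadjusted p under 0.05 there were 11, against 29.2% of all genes. DESeq2 called 9 of the 32 genes and 16.8% of all genes. Without control mice C134 and C154, whose lymphoid follicle markers were high, edgeR called 1 of 32 genes tested, against 200 of all 18252.

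Cyp2j5 fell most. Control duodenum had 0.941, 0.858, 1.20 and 0.888 CPM and mutant duodenum 0.119, 0.0236, 0.146 and 0 CPM, or 203 and 14 counts in all. The groups did not overlap (log2 -3.59, SE 0.53, edgeR adjusted p = 0.00452), and only 0.2% of its 50-letter words occur in another family gene. Over the alternatives its adjusted p ran up to 0.0441, and the filter of 1 CPM in 4 libraries did not test it. Cyp2j5 reached the count minimum through control duodenum alone, and a gene let in that way had to differ. Its cluster neighbour Cyp2j8 went the other way: 0.0801, 0.254, 0.0839 and 0.0592 CPM in control and 0.955, 0.590, 0.856 and 0.111 CPM in mutant duodenum. The groups overlapped through mutant mouse M177 and control mouse C134 (2.36, SE 0.63, adjusted p = 0.0449). The abundant Cyp2j6 had 250 to 575 CPM in control and 287 to 790 CPM in mutant duodenum and did not pass (0.48, SE 0.33, adjusted p = 0.361).

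Cyp2u1 had 32.7, 51.1, 22.6 and 29.7 CPM in control duodenum and 20.0, 10.7, 17.3 and 9.86 CPM in mutant duodenum, with no overlap (log2 -1.22, SE 0.31, adjusted p = 0.0470). Cyp2c67 had 0.300, 0.349, 0.441 and 0.316 CPM in control and 0.995, 0.708, 0.772 and 0.471 CPM in mutant duodenum, again with no overlap (1.09, SE 0.30, adjusted p = 0.0484). Cyp2j8, Cyp2u1 and Cyp2c67 stood close to the threshold and each lost it without most single mice. Without 1 mouse, the adjusted p ran up to 0.123 for Cyp2j8 (mouse C133 left out), to 0.108 for Cyp2u1 (mouse M177) and to 0.128 for Cyp2c67 (mouse C133). The leading genes Cyp3a13, Cyp3a11 and Cyp2d26 had log2 fold changes of 0.10 (SE 0.25), 0.42 (SE 0.27) and -0.55 (SE 0.20), none of which passed. Mutant mice M167 and M177 were lower than mice M136 and M168 for Cyp3a13 (1247 and 1544 against 2490 and 2634 CPM). The same 2 mice had the lowest villus enterocyte sums among the duodenum libraries, 26310 and 23494 CPM. They also had the highest exocrine pancreas sums, 206727 and 201022 CPM, against 9287 and 45287 CPM in M136 and M168. The part of these in the genotype values was not tested.

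In ileum the same comparison gave 1056 ± 311 CPM in control and 929 ± 291 CPM in mutant mice over the 60 genes (SD, n = 4). Of 22 genes tested, 5 were lower and 1 higher in mutant ileum, against 14.6% lower and 19.0% higher (33.6% in either direction) among all 18310 genes tested. The median over the 22 genes was -0.51, against -0.03 over all genes. At an unadjusted p under 0.05 there were 10, against 44.0% of all genes. DESeq2 called 11 of the 22 genes and 37.6% of all genes. Without control mice C134 and C154, edgeR called 3 of 30 genes tested, against 4067 of all 19230. The share of these genes called by edgeR with all mice, 6 of 22, was near the share among all genes.

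Cyp3a25 changed most. It had 37.3, 73.2, 43.0 and 57.1 CPM in control ileum and 13.2, 8.00, 16.7 and 7.91 CPM in mutant ileum, far apart (log2 -2.18, SE 0.32, adjusted p = 0.00134). The fall passed under each of the 16 alternatives, with an adjusted p of at most 0.00904. Its abundant relatives did not follow: Cyp3a13 had 251 to 434 CPM in control and 209 to 419 CPM in mutant ileum (0.09, SE 0.28, adjusted p = 0.831), and Cyp3a11 had 21.6 to 33.7 and 10.5 to 32.4 CPM (-0.47, SE 0.35, adjusted p = 0.328). Whether Cyp3a25 differs from them was not tested.

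Cyp2c68 had 23.7, 44.4, 20.1 and 22.6 CPM in control ileum and 12.3, 7.64, 14.4 and 5.86 CPM in mutant ileum. The groups did not overlap (-1.43, SE 0.36, adjusted p = 0.0174), and without mouse M167 the adjusted p was 0.0506. It also did not pass without C134 and C154, without M167 and M177 or without a count filter (adjusted p up to 0.0942). Cyp2c55 had 10.8, 13.6, 6.64 and 10.1 CPM against 5.13, 4.21, 6.29 and 2.18 CPM (-1.18, SE 0.32, adjusted p = 0.0196), and it passed without any single mouse. It did not pass without C134 and C154 (adjusted p = 0.116), without M167 and M177 (0.0541) or without a count filter (0.0626). Cyp2c65, the leading Cyp2c gene, had 54.4 to 103 CPM in control and 43.4 to 80.5 CPM in mutant ileum and did not pass (-0.34, SE 0.24, adjusted p = 0.317).

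Cyp2d26 had 137, 241, 94.7 and 108 CPM in control ileum and 61.9, 45.4, 91.9 and 51.6 CPM in mutant ileum (-1.18, SE 0.35, adjusted p = 0.0331). The groups nearly met, and without mouse C133, M136, M167 or M177 the adjusted p was 0.0586, 0.0808, 0.0803 or 0.0810. Cyp2d26 also did not pass without C134 and C154, without M167 and M177 or without a count filter (adjusted p up to 0.224). Cyp2d10 went up, from 0.351, 0.229, 0.209 and 0.207 CPM to 0.394, 0.728, 0.470 and 0.482 CPM (1.08, SE 0.34, adjusted p = 0.0312). It has 39.8% of its 50-letter words in common with other family genes, and it lost the threshold without any 1 of 6 mice (C134, C151, C154, M167, M168 or M177, with adjusted p-values up to 0.0796). Cyp2w1 had 2.11, 1.07, 1.78 and 0.477 CPM in control and 0.854, 0.420, 0.366 and 0.304 CPM in mutant ileum, with overlap (-1.44, SE 0.46, adjusted p = 0.0344). It lost the threshold without any 1 of 5 mice (C133, C151, M167, M168 or M177, with adjusted p-values up to 0.105). Beside these falls, villus enterocyte markers had 3 of 10 genes lower and none higher in mutant ileum, and 6 of 8 lymphoid follicle markers were lower. Crypt markers had 4 of 8 genes higher and 1 lower, and epithelium markers 3 of 8 higher. Their part in the P450 values was not tested.

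**Figure D3:**
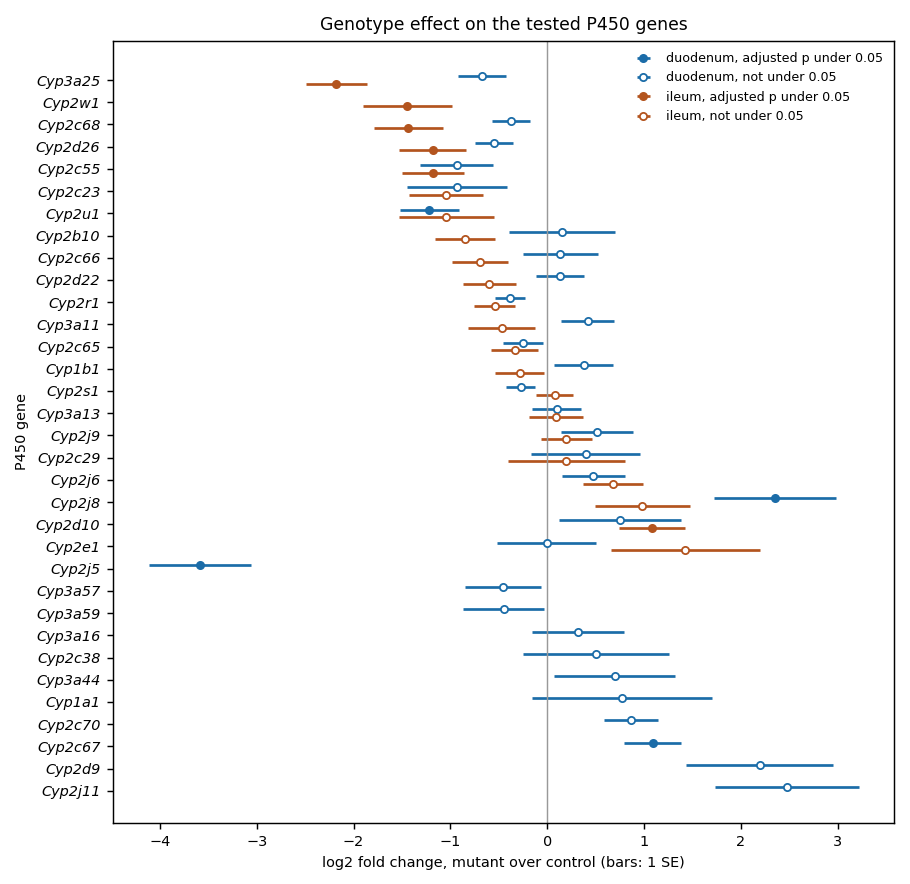
Log2 fold change of mutant over control for the P450 genes tested, in duodenum (blue) and ileum (orange), with bars of 1 SE and filled points for an edgeR adjusted p under 0.05. Filled points are 4 in duodenum and 6 in ileum, and no gene is filled in both.

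**Figure D4:**
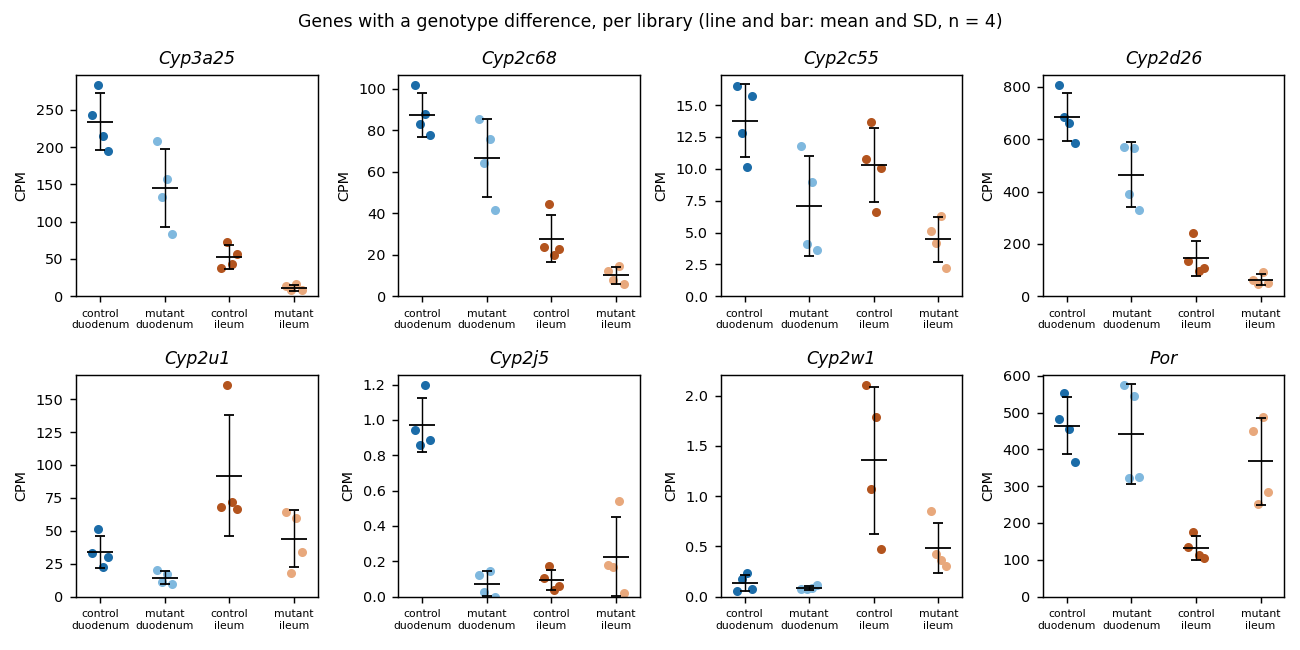
CPM per library (points, 4 a group) with the mean and SD for the 7 P450 genes called as lower in mutant mice and for Por. The P450 genes called as higher in mutant mice (Cyp2c67, Cyp2j8 and Cyp2d10) are not drawn. Cyp3a25 is low in all 4 mutant ileum libraries (7.91 to 16.7 CPM), Cyp2j5 is high in control duodenum alone (0.858 to 1.20 CPM), and Por is raised in mutant ileum (251 to 487 CPM).

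Of the 10 genes called for genotype, none was called in both tissues, and Cyp2j5, Cyp2c67 and Cyp2w1 had too few counts for a test in the other tissue. Those tested in both tissues had the same sign in both. Cyp2u1 was -1.04 (SE 0.49, edgeR adjusted p = 0.149) in ileum, again with no overlap. Cyp2c55 was -0.94 (SE 0.38, adjusted p = 0.149) in duodenum, with overlap. Whether the effects differ was tested directly over 35 genes, as the genotype effect in ileum minus that in duodenum. These tests share their libraries with the comparisons above. Cyp2j5 was higher on this scale (4.86, SE 1.01, adjusted p = 0.0135) and Cyp3a25 lower (-1.52, SE 0.42, adjusted p = 0.0419), against 4.86% higher and 4.13% lower (8.99% in either direction) among all 19289 genes tested. Cyp2j5 fell in mutant duodenum while mutant ileum had 0.181, 0.168, 0.540 and 0.0179 CPM, 55 counts in all against 21 in control ileum. Without mouse C151 its adjusted p was 0.0598. Cyp3a25 was -0.67 (SE 0.25, adjusted p = 0.116) in duodenum, where 208, 132.96, 157 and 82.8 CPM in mutants overlapped 195 to 284 CPM in controls. Its difference between tissues lost the threshold without any 1 of 6 mice (C133, C134, C151, C154, M136 and M167, adjusted p up to 0.107). For Cyp2u1 the difference between tissues was 0.17 (SE 0.61, adjusted p = 0.873), and for Cyp2c55 it was -0.26 (SE 0.53, adjusted p = 0.772).

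With the mouse as a block, 1 gene was higher and 5 were lower in this test, against 10.8% higher and 10.0% lower (20.9% in either direction) among all genes in that fit. Cyp2j5 (4.95, adjusted p = 0.00172) and Cyp3a25 (adjusted p = 0.00389) passed again. Cyp3a11 (-0.96, adjusted p = 0.00318), Cyp1a1 (-3.52, adjusted p = 0.00715), Cyp2c68 (-1.04, adjusted p = 0.0266) and Cyp1b1 (-0.60, adjusted p = 0.0360) passed in addition. Without the block their adjusted p-values were 0.213, 0.0932, 0.116 and 0.292. For Cyp3a11 the genotype values behind this were 0.42 in duodenum and -0.47 in ileum.

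The partners of these enzymes come from lists of receptors, electron donors and haem enzymes. The electron donors (6 genes) were lower in ileum as the P450 genes were, 6 of 6 in control and 5 of 6 in mutant mice. Among all genes tested, 30.3% were lower in control and 18.2% in mutant mice. Por, which feeds electrons to every P450 of these families, had 133.97, 175, 114 and 105 CPM in control ileum and 449, 251, 487 and 283 CPM in mutant ileum. It rose with no overlap (log2 1.51, SE 0.25, adjusted p = 0.00174). In duodenum it had 364 to 554 CPM in control and 322 to 575 CPM in mutant mice (-0.06, SE 0.22, adjusted p = 0.884), and the difference between tissues passed (1.55, SE 0.35, adjusted p = 0.0193).

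Of 14 receptors and partners, 5 were lower and 4 higher in control ileum than in control duodenum. This was near the share among all genes tested (30.3% lower and 28.0% higher). Nr1i2, the pregnane X receptor, was 153 ± 18.4 CPM in control duodenum and 45.6 ± 3.22 CPM in control ileum (-1.74, SE 0.10, adjusted p = 4.37e-07). Nr1i3, the constitutive androstane receptor, was 50.7 ± 8.61 and 6.24 ± 1.12 CPM (-3.01, SE 0.16, adjusted p = 5.35e-07). Ahr was 58.3 ± 6.09 and 34.7 ± 1.40 CPM (-0.74, SE 0.08, adjusted p = 3.29e-05). All these SDs are over 4 libraries. In mutant duodenum 1 of the 14 fell: Nr1i2 had 170, 161, 153 and 127 CPM in control and 127, 85.6, 106 and 80.4 CPM in mutant mice (-0.60, SE 0.15, adjusted p = 0.0397). In mutant ileum 3 fell: the glucocorticoid receptor Nr3c1 (-0.56, adjusted p = 0.0012), Rxra, the shared partner of Nr1i2 and Nr1i3 (-0.34, adjusted p = 0.0290), and the repressor Nr0b2 (-1.50, adjusted p = 0.0426). Among all genes tested, 5.11% were lower in mutant duodenum and 14.6% in mutant ileum.

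Of 5 Ahr-induced genes outside the P450s, 4 were tested in mutant ileum. Ahrr, the repressor of Ahr, fell from 6.04, 5.41, 3.61 and 6.16 CPM to 1.69, 1.76, 3.07 and 1.71 CPM (-1.34, SE 0.25, adjusted p = 0.00217). Tiparp fell slightly (-0.33, adjusted p = 0.0196). Nqo1, a quinone reductase, rose from 13.9 to 20.7 CPM to 25.3 to 48.8 CPM (1.25, SE 0.20, adjusted p = 0.0012). Of 7 enzymes of haem synthesis, 3 rose in mutant ileum and none fell: Cpox (0.51), Fech (0.38) and Alad (0.60), with adjusted p from 0.00513 to 0.0072. Of the P450s of families 4 and up, 9 were lower and 2 higher of 19 tested in mutant ileum. Among all genes tested in mutant ileum, 14.6% were lower and 19.0% higher.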

How the data were processed

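The authors deposited unnormalised read counts of 55359 Ensembl genes for 16 libraries. Libraries were stranded total RNA depleted of ribosomal RNA, per the labels' protocols. Per the submitters' processing notes, the genome was mm39 and the tools were STAR 2.5.3a, Bowtie2 2.2.8, HTSeq 0.6.1p1 and cutadapt 1.10. For the annotation release and the strand setting, the answer is not given in the sources used here. Reads shared by close copies may have been split or discarded in counting: 27 of the 60 genes have over 10% of their 50-letter words in another family gene.

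Names and exon lengths came from GENCODE M21 (52083 identifiers matched), promoters from RefSeq. Groups follow the labels. Each contrast was fitted on its own libraries with edgeR 4.0.16 (limma 3.58.1, R 4.3.3): filterByExpr, TMM scaling, robust quasi-likelihood F test, Benjamini-Hochberg adjustment over all genes tested, threshold 0.05. CPM used TMM library sizes. SEs are the log2 fold change over the root of its F. The steps were tested on simulated data. Nothing says how the mice were housed or processed, so p-values measure only the spread between these samples.

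Title numbers were read as mouse numbers. Deviations of the libraries of 1 mouse correlated (r of 0.304 to 0.582 in the 8 mice), so a fit with the mouse as block was an alternative. Others were DESeq2 size factors, DESeq2 1.42.0, limma-voom, other count filters, mice left out and all 16 libraries in 1 fit.

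The P450 families and the lists were picked as subjects with earlier results of these data known, although the rule for the 60 genes uses names alone. Named are the P450 genes past the threshold in any of 5 comparisons and the 3 with the highest mean CPM per tissue, up to 4 genes per partner list past it in a genotype comparison, and Por, Nr1i2, Nr1i3 and Ahr; others serve as comparison. Hnf4a is given because of its binding word, and Cyp1b1, Cyp2e1, Cyp2f2 and the genes of the closing section after their values were seen. Uros is named by the rule as well. A further gene of haem synthesis was left out of that list and is not reported here.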

Additional observations from a re-analysis of the deposited data

Results flagged for a closer look

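In groups of 4 libraries, a value standing apart from the other 3 was found in 12 of 119 groups of the P450 genes tested. For independent, normally distributed values about 1 in 20 would stand apart. These values come from shared mice and some are a few counts, so no excess over chance is drawn from the 12 groups. Mouse C134, a control, was the highest in 7 of them. In control duodenum these were Cyp1a1 (3.40 CPM, next 0.501) and Cyp2j8 (0.254, next 0.0839). In control ileum they were Cyp2c68 (44.4, next 23.7), Cyp2d22 (27.0, next 14.2), Cyp2j8 (0.267, next 0.114), Cyp2u1 (160.93, next 72.2) and Cyp3a13 (434, next 266). Mouse C133 was highest for Cyp2d10 (0.351 CPM) and lowest for Cyp3a59 (0.132 CPM) in control ileum. In mutant ileum, mouse M168 was highest for Cyp3a16 and Cyp3a57 (0.0697 CPM each) and mouse M167 for Cyp3a44 (0.0560 CPM), values of a few counts.

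The genotype effect differed between ileum and duodenum, by the test of that difference, for Cyp2j5 (log2 4.86), Cyp3a25 (-1.52), Por (1.55) and the haem synthesis genes Uros (0.72) and Fech (0.37). For Cyp2j5 the count minimum was reached mainly through control duodenum, as stated above. Uros fell in mutant duodenum (-0.63, edgeR adjusted p = 0.0225) and was 0.11 in mutant ileum (adjusted p = 0.576).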

How the results depend on the processing

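No P450 gene past the threshold changed sign under any alternative. Among those called, 19 of 24 (region, control mice), 19 of 23 (region, mutant mice), 1 of 4 (genotype, duodenum), 1 of 6 (genotype, ileum) and 0 of 2 (genotype by tissue) passed under every alternative that tested them. DESeq2's Wald test called 9 genes for genotype in duodenum, 11 in ileum and 4 for genotype by tissue. A filter of 1 CPM in 4 libraries left 16 region calls in control mice and 1 genotype call in duodenum. No count filter left 1 for genotype by tissue. Without control mice C134 and C154 the calls were 1, 3 and 0. A fit of all 16 libraries gave 11 for genotype in ileum. The mouse as replicate block gave 6 for genotype by tissue, 26 and 25 for region. Leaving out each mouse gave 22 to 24 (region, control), 20 to 25 (region, mutant), 1 to 4, 4 to 10 and 0 to 2 calls. The causes were not tested. Depth limits the genes under 0.1 CPM, of which none was tested.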

Other observations

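Some members of the Cyp2j cluster were too scarce for most tests, and their counts split by group. They are named after their values were seen. Cyp2j12 had 37 counts in control duodenum (0.0790 to 0.336 CPM) and 0 in the 4 libraries of each other group. Cyp2j13 had 1 count in control and 0 in mutant duodenum, 23 in control ileum (0.0207 to 0.152 CPM) and 144 in mutant ileum (0.112 to 0.976 CPM, overlapping). Its genotype effect in ileum minus that in duodenum was 4.15 on the log2 scale (SE 2.77, edgeR adjusted p = 0.324). Cyp2j11 had 23 counts in control and 106 in mutant duodenum (log2 2.48, SE 0.74, adjusted p = 0.0659). Cyp2f2, outside this cluster, had 40 counts in control and 1 in mutant duodenum, and 67 and 17 in ileum.

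Cyp2e1 spread widely in mutant ileum, with 3.09, 21.3, 26.6 and 6.57 CPM, against 2.36 to 9.35 CPM in control ileum (log2 1.43, SE 0.77, adjusted p = 0.202).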
